A study of Mus musculus with 3 samples.

Results

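Cwc22 is a spliceosome protein that delivers the helicase Eif4a3 to the splicing machinery, and its gene was examined in mesangial cells together with the genes of the exon junction complex core. The members were 6 genes, Cwc22, Eif4a3, Magoh, Magohb, Rbm8a and Casc3, of which 4 were measured among 18685 named genes. For Magoh and Magohb the platform annotation lists no probe set, and they are not analysed here. The set was chosen on the spread of Cwc22 over these same samples, with the complex genes added by function, so the spread of Cwc22 is given as a description and without a test.

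The samples were mesangial cells, contractile supporting cells between the capillaries of the glomerulus, sorted from the kidneys of adult male mice of the outbred CD-1 stock. All mice carried Tg(Meis1-EGFP)FO156Gsat, a bacterial artificial chromosome in which Meis1 regulatory sequence drives green fluorescent protein. The 3 samples form 1 group, each from 1 kidney and not pooled, with 1 array per sample. Whether each kidney was from a different mouse is not stated, and the SDs measure only the spread between these samples, which can include technical variation. There was no control population and no comparison between conditions. Genotype beyond the transgene is not given in the labels.

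During splicing, Eif4a3 clamps onto the RNA just upstream of each new exon junction and is locked there by the heterodimer of Rbm8a with Magoh or its near copy Magohb, and Casc3 joins this core. The complex then marks the mRNA for export, for translation and for nonsense-mediated decay, which destroys messages that carry a stop codon ahead of a junction. In mice, Cwc22 is also known for lying in a stretch of chromosome 2 whose copy number differs between strains. Copy number was not measured here.

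All values are deposited log2 signals, with means ± SD over n = 3 samples. Because probe sets bind with different affinity, a gene's signal is read across its own samples and against a background threshold, and a higher signal than that of another gene does not mean more RNA. The threshold of an array was the 95th percentile of its 1269 probe sets for genes that should be silent in kidney (keratin-associated proteins and the receptors of the olfactory, vomeronasal and trace amine families). It was 7.48, 7.46 and 7.40 in samples 1, 2 and 3. Mesangial markers were above it on all arrays for 13 of 14 genes, the exception being Tbx18 at 6.12, and the mean of this list was 11.32, 11.33 and 11.29. Of the markers of other cells, 9 of 10 endothelial, 5 of 7 podocyte, 7 of 12 tubule and 4 of 9 leukocyte genes passed the threshold, where 58.0% of all named genes did. With the threshold raised by 1 these counts were 6, 3, 0 and 0, where 32.7% of all named genes passed. The mesangial count there stayed at 13 of 14.

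All 4 measured members lay above the threshold on all 3 arrays, beside the same 58.0% of named genes. All 4 also passed the threshold raised by 1, where 32.7% of named genes did. The range over the samples was 3.12 for Cwc22 and at most 0.21 for the others.

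Cwc22 encodes a protein with MIF4G and MA3 domains, folds shared with translation initiation factors, that holds Eif4a3 until the complex is assembled. Its signal was 9.68 in sample 1, 12.80 in sample 2 and 11.89 in sample 3, a mean of 11.46 ± 1.60. Sample 1 was far below the other samples, and sample 2 was highest. The gap between samples 2 and 1 was 3.12, which on the log2 scale is 8.70-fold in signal, and that between samples 3 and 1 was 2.21 or 4.63-fold. Samples 2 and 3 lay 0.91 apart, which is also the range without sample 1, so the width rests mainly on that sample. Even in sample 1 the value was 2.20 above the threshold.

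Cwc22 was listed for 8 probe sets, more than for any other member. In 7 of them the 3 values were identical to the last digit, so these count as 1 measurement, and no other probe set of the array carried these values. Of 983 genes with several probe sets, 25 had probe sets that shared 3 differing values in this way, and Cwc22 was the 1 gene with 7 or more. The remaining probe set was a separate reading, with 9.26 in sample 1, 11.12 in sample 2 and 10.42 in sample 3 (10.27 ± 0.94). It put the samples in the same order, and its range was 1.86, a 3.63-fold difference in signal.

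The upstream sequence of Cwc22 is shown because its level varied across samples, beside that of its binding partner Eif4a3, whose range was 0.21. Each is a reference sequence and not read from these mice, so neither can show how the samples differ. Both are the 250 bases before the RefSeq start in GRCm38.p6, read 5′ to 3′ on the gene's strand, for Cwc22 chr2:77946357-77946606 on the minus strand and for Eif4a3 chr11:119300044-119300293 on the minus strand. Capitals mark matches, on either strand, to the letters TATAAA of the TATA box, to the CCAAT box, to GGGCGG of the GC box, to the ETS core with letters CCGGAA, to the E-box with letters CACGTG, or to ACTACAA, which opens the element bound by Zfp143.
Cwc22: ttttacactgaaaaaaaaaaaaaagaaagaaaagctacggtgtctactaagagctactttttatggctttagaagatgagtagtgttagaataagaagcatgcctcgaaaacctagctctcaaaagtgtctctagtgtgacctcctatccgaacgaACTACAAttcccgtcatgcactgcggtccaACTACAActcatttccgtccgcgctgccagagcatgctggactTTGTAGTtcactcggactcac
Eif4a3: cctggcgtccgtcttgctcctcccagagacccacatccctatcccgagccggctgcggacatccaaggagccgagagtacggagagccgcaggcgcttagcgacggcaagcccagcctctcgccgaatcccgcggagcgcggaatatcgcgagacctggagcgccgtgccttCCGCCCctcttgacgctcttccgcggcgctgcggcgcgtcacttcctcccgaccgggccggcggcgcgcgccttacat
The Cwc22 window had 42.8% G and C and 10 CpG dinucleotides, and the Eif4a3 window 70.0% and 36, against medians of 52.4% and 6 over 32851 such windows, of which a gene can have several.

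ACTACAA occurred 3 times before Cwc22. The matches on the gene's strand began 94 and 64 bases before the start, and the match on the opposite strand lay 21 bases before it. These letters were added to the search after the Cwc22 sequence had been read, so the count is a description. They were present at least once in 2.81% of all windows and 3 or more times in 3 of the 32851, Cwc22 included. Neither window held the TATA box, CCAAT box, ETS core or E-box letters, which 12.4%, 33.8%, 12.0% and 6.02% of windows hold. The Eif4a3 window had 1 GGGCGG, on the opposite strand, a sequence found in 32.7% of windows and not in that of Cwc22. The matches overlapped no other motif searched. No binding was measured.

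Eif4a3, the DEAD-box ATPase that forms the RNA clamp, had 10.65, 10.44 and 10.47 in samples 1, 2 and 3 (10.52 ± 0.11). Sample 1 was highest, unlike for Cwc22, and the range of 0.21 corresponds to 1.16-fold. Samples 2 and 3 lay 0.03 apart. A further 2 probe sets were annotated to both Eif4a3 and its near copy Eif4a3l1 and were not used. The probe set of Eif4a3l1 alone, looked up after the other values were seen, had 5.79, 5.70 and 5.61 and was not above the threshold on any array.

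Rbm8a, which encodes the Y14 subunit that with Magoh keeps Eif4a3 closed on the RNA, had 11.38 in each sample. Its values were identical to the last digit, as for 39.4% of named genes above the threshold, so the SD of 0 is no measure of precision. Rbm8a2, annotated by RefSeq as a pseudogene, was at 3.83 on each array, below the threshold.

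Casc3, the core subunit also known as Barentsz or MLN51, had 9.33, 9.50 and 9.43 (9.42 ± 0.09). Its samples stood in the order of Cwc22, but within 0.18, or 1.13-fold. Without sample 1 the range was 0.03 for Eif4a3 and 0.07 for Casc3.

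**Figure D1:**
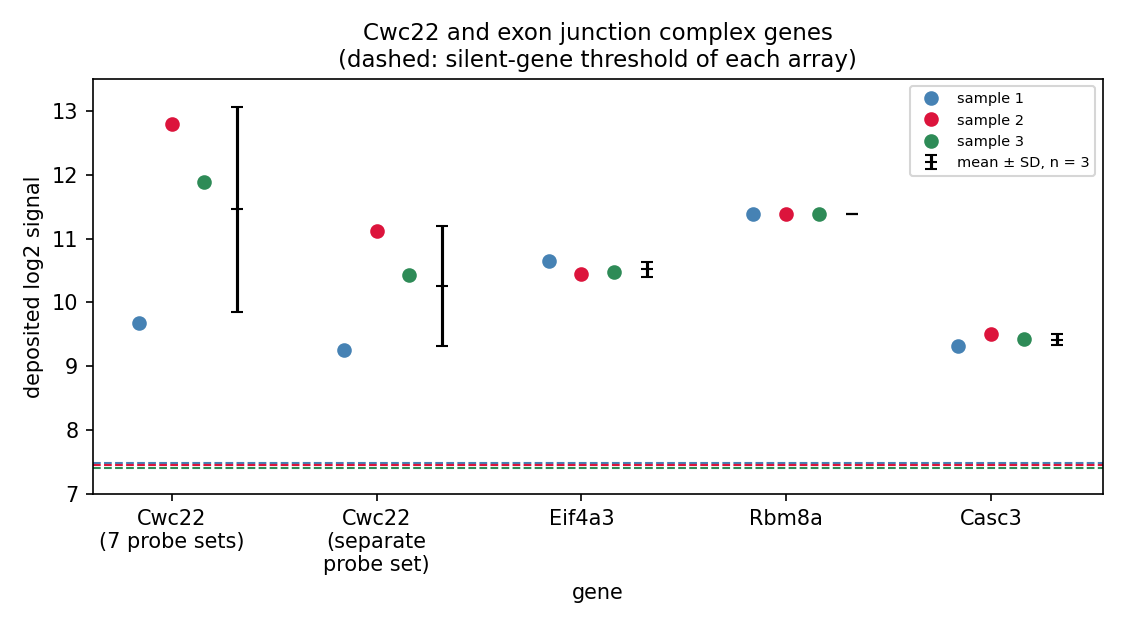
Deposited log2 signal (vertical axis) of Cwc22, as its 7 probe sets of identical values and as its separate probe set, and of Eif4a3, Rbm8a and Casc3; points are samples, bars are the mean ± SD over 3 samples, and dashed lines are the silent-gene thresholds of the arrays. Cwc22 runs from 9.68 in sample 1 to 12.80 in sample 2, while the other genes stay within 0.21.

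The spread of Cwc22 was far outside that of most genes. Among the 10842 named genes above the threshold it had the largest SD, 1.60, where the median was 0.02 and the 99th percentile 0.44. The next gene was Htr1b, a serotonin receptor, with 7.77, 7.89 and 10.07 (SD 1.30), high in sample 3 alone. The separate Cwc22 probe set had an SD of 0.94, below that of Htr1b. The first rank therefore rests on the 7 probe sets of identical values. The range passed 1 in 65 of the 10842 genes (0.600%), and in 1 of the 4 measured members, the one chosen for it. Over all named genes at any level, 1 had a larger SD, the small nucleolar RNA gene Snora20, which was below the threshold in samples 2 and 3 and was named after its values were seen. Ranges of 0.21 for Eif4a3 and 0.18 for Casc3 exceeded those of 80.8% and 76.8% of genes above the threshold, many of which have identical values on all arrays.

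**Figure D2:**
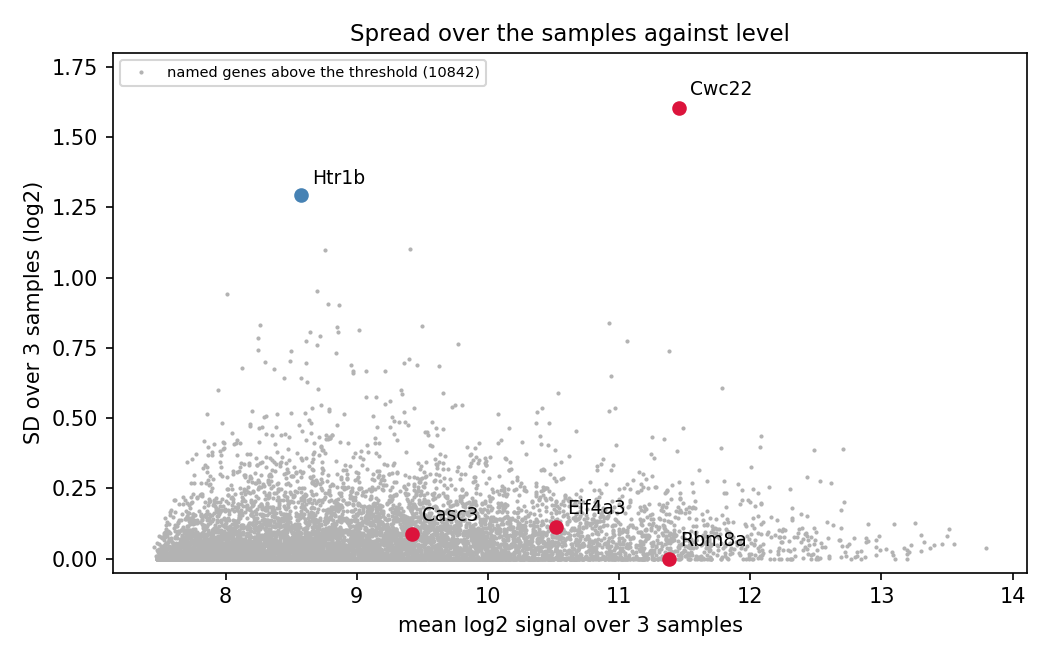
SD over the 3 samples (log2, vertical axis) against the mean log2 signal (horizontal axis) for the 10842 named genes above the threshold, 1 grey point per gene, with the 4 measured members in red and Htr1b in blue. Cwc22, as its 7 probe sets of identical values, lies at an SD of 1.60 and a mean of 11.46. Eif4a3, Rbm8a and Casc3 lie at SDs of 0.11, 0 and 0.09.

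Cwc22 had sample 1 lowest and sample 2 highest. Of the 65 named genes above the threshold with a range over 1, 13 had this order (20.0%), Cwc22 included, and sample 1 was lowest in 18 and highest in 24. Probe sets that the annotation does not list, taken at any level, ranged over 1 in 1674 of 12147 cases. Of these, 493 had the order of Cwc22 (29.5%), sample 1 was lowest in 884 (52.8%), and sample 2 was highest in 644, more often than sample 1 or 3. Their part in the Cwc22 values was not tested. Centring the arrays on the median of all probe sets moved no array by more than 0.02 and left the range of Cwc22 at 3.09.

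In samples 1, 2 and 3 the mean of the list was 9.04, 8.97 and 9.09 for endothelial markers, 8.85, 8.79 and 8.89 for podocyte markers and 6.88, 6.89 and 6.87 for leukocyte markers. The tubule list had the widest range of means, at 7.57, 7.66 and 7.40, with Umod at 9.51, 9.18 and 8.22 and Kap at 8.44, 8.51 and 7.17, both low in sample 3. The tubule marker Calb1, a calcium-binding protein gene named after its values were seen, had 7.72, 8.66 and 8.49, the sample order of Cwc22 over a range of 0.94. In sample 1 Calb1 lay 0.24 above the threshold. Of the 12 tubule genes 4 had identical values on all arrays. The median deviation of the tubule list from each gene's own mean was 0.000, 0.039 and -0.011 in samples 1, 2 and 3. The part of tubule RNA in the Cwc22 values was not tested. The mean of 11 genes that tissue dissociation induces was 9.05, 8.94 and 9.16, lowest in sample 2, where Cwc22 was highest. The median of their deviations from each gene's own mean was -0.002, -0.002 and 0.014, equal in samples 1 and 2. The widest of these genes, the heat shock gene Hspa1a, had 9.99, 9.12 and 10.13. In sorted cells profiled in bulk, more RNA per cell and more cells that express a gene cannot be told apart.

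The genes next to Cwc22 on chromosome 2 ranged over at most 0.30. They were chosen by the RefSeq position of Cwc22, and where its probe sets lie was not checked. Whether these genes lie within the stretch of variable copy number was not checked either. Of the 3 nearest measured genes on each side in the RefSeq order, 5 were above the threshold, and Gm14461, at 5.69 on each array, was not. Ube2e3, a ubiquitin-conjugating enzyme, had 10.53, 10.83 and 10.72, the same order as Cwc22 but within 0.30. The integrin subunit gene Itga4 had 11.82, 11.85 and 11.89, and Sestd1 had 9.74, 9.86 and 9.86. Ccdc141 had 8.17, 8.17 and 8.09, and Zfp385b 7.81 in each sample.

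The genes with the most similar pattern were found by the distance between deviations from each gene's own mean over the 3 samples, among genes above the threshold. They were Gm10825 (distance 0.85), Gm8995 (0.95), Zfp672 (1.17), Mir677 (1.17) and Styx (1.27). Gm10825, the nearest, had 7.66, 9.86 and 8.75, with a range of 2.20. Gm8995 had 7.61, 9.39 and 9.09, and Zfp672, a zinc finger gene, 7.81, 9.42 and 8.70. The microRNA gene Mir677 had 8.19, 9.83 and 9.02, and Styx, for an inactive phosphatase, 7.90, 9.24 and 9.40, highest in sample 3. In sample 1 all 5 lay less than 1 above the threshold.

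**Figure D3:**
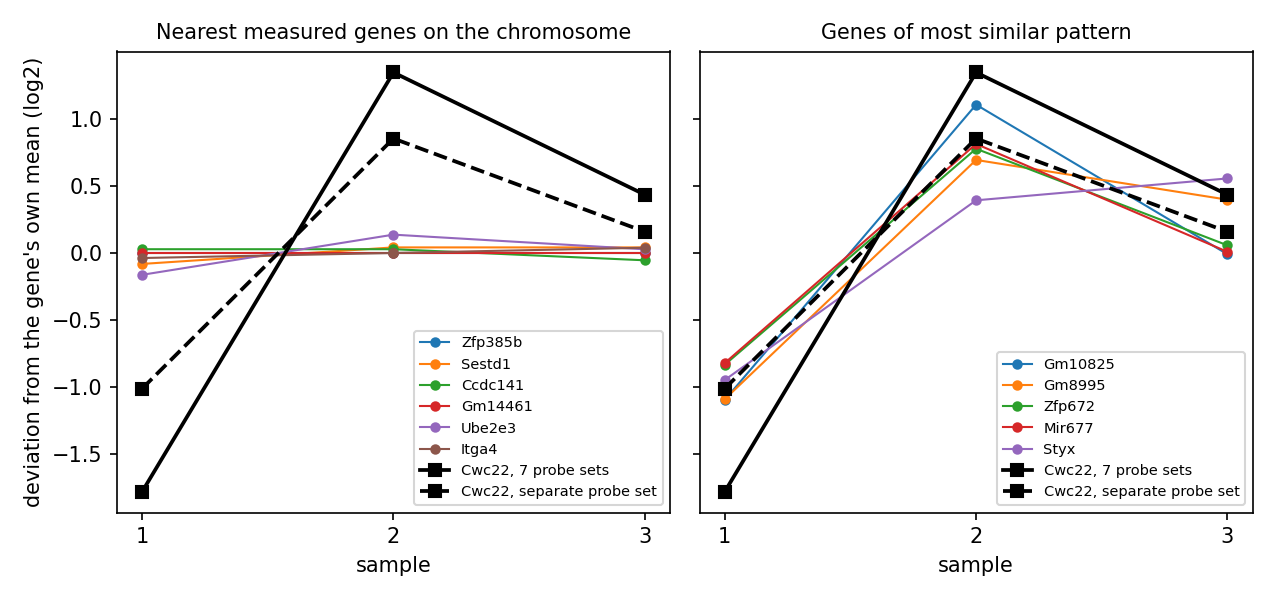
Deviation from the gene's own mean (log2, vertical axis) in samples 1, 2 and 3 for Cwc22, in black as its 7 probe sets of identical values and its separate probe set, beside the 6 nearest measured genes on the chromosome (left) and the 5 genes of most similar pattern (right); lines only join the values of a gene. The neighbours stay within a range of 0.30, and the similar genes reach 2.20 against 3.12 for Cwc22.

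Of 89 genes in 6 lists of proteins or transcripts tied to the exon junction complex, 82 were measured, and 77 of these (93.9%) lay above the threshold, beside 58.0% of named genes. The values were identical on all arrays in 38 of the 82, beside 39.4% of named genes above the threshold. The median range was 0.02, beside 0.03 over those genes, and 1 of the 82, Gadd45b, had a range over 1, beside 0.600% of them. The median range lies near that of all genes above the threshold, and the share of identical values is somewhat higher. The share of ranges over 1 rests on 1 gene. The 82 also include genes below the threshold, among them the pseudogene Rbm8a2, so the sets compared are not alike. Of the 21 genes with 3 different values, 5 had the sample order of Cwc22, namely Gspt2, Alyref2, Plrg1, Acin1 and Prpf8. The last 3 of them were named after their values were seen. Among named genes above the threshold with a range over 1, this order made up 20.0%. Its share over all named genes with 3 different values was not computed, so the count is a description.

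The list of factors that bind the assembled complex or recycle it also held the pseudogene Rbm8a2. It was above the threshold in 8 of 9 genes, beside 58.0% of named genes. Pnn, which forms a peripheral complex with Rnps1 and Sap18, had 11.42, 11.18 and 11.18, highest in sample 1. Sap18 had 9.64, 9.72 and 9.82, and the splicing coactivator gene Srrm1 10.69 in each sample. Pym1, whose product strips the complex from mRNA during translation, had 8.75, and Ipo13, the importin that returns the Magoh and Rbm8a dimer to the nucleus, 8.22, identical on the arrays; both were picked after their values were seen. The exception was Rbm8a2, given above, which is not such a factor.

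Nonsense-mediated decay factors, which read the complex as a mark, were above the threshold in 17 of 17 measured cases, beside 58.0% of named genes. At the threshold raised by 1, 11 of the 17 passed, beside 32.7% of named genes. Pnrc2, an adaptor to the decapping machinery, had 11.30 and the release factor gene Gspt1 10.94 ± 0.02, and the helicase gene Dhx34 7.74 in each sample. The largest range was that of Gspt2, a second release factor gene, with 7.65, 8.23 and 8.04, followed by the cap-binding gene Ncbp2 with 9.55, 9.27 and 9.47. Gspt2 had the sample order of Cwc22 over a range of 0.57, and in sample 1 it lay only 0.17 above the threshold. The central helicase gene Upf1, named after its values were seen, had 8.32 in each sample.

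Of 6 measured transcripts known as natural targets of this decay, 5 lay above the threshold, beside 58.0% of named genes. The host gene of small nucleolar RNAs Gas5 had 13.09 ± 0.01 and the stress transcription factor gene Atf4 9.58, 9.46 and 9.58, while the uridine phosphorylase gene Upp1 was at 6.44 and not above it. Gadd45b, a stress response gene, had 9.27, 8.00 and 8.47, a range of 1.27. It was highest in sample 1, where Cwc22 was lowest, and lowest in sample 2, where Cwc22 was highest. In sample 2 it lay 0.54 above the threshold. The other targets varied little. Gadd45a ranged over 0.08, and Tbl2, like Upp1, was identical on all arrays. Gadd45a and Tbl2 were named after their values were seen. Gadd45b is known to respond to stress. The mean of the dissociation genes given above was also lowest in sample 2, though highest in sample 3. Their median deviation was equal in samples 1 and 2. The part of dissociation in the Gadd45b values was not tested.

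Export factors were above the threshold in 14 of 15 cases, beside 58.0% of named genes. The export receptor gene Nxf1 had 11.32 in each sample, and Thoc7, of the THO complex that couples splicing to export, 11.10, 11.03 and 11.03. Thoc6, of the same complex, was at 7.43 ± 0.01 and did not pass on all arrays. The widest ranges were 0.39 for Thoc3, with 9.37, 8.98 and 8.98, and 0.35 for the adaptor gene Alyref2, with 7.99, 8.34 and 8.30 in the sample order of Cwc22. In sample 1 Alyref2 lay 0.51 above the threshold.

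Prp19-associated and other spliceosome genes that act with Cwc22 in the catalytic steps were above the threshold in 26 of 28 cases. The share over all named genes was 58.0%. Syf2 had 11.70, 11.70 and 11.56 and Cwc15 11.45, 11.40 and 11.45, both for subunits of the activated spliceosome. The first-step factor gene Yju2 at 7.01 and the cyclophilin gene Ppil1 with 7.21, 7.45 and 7.67 were the exceptions, and Ppil1 had the widest range, 0.45. Cwc25, for another first-step factor, had 8.79, 8.65 and 8.48, highest in sample 1. Cwc27, the cyclophilin-like partner of Cwc22, was named after its values were seen and had 9.34 in each sample.

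Relatives of Eif4a3 and genes with the domains of Cwc22 were above the threshold in 7 of 7 cases, beside 58.0% of named genes. The translation helicase gene Eif4a2 had 12.36, 12.47 and 12.47 and the initiation factor gene Eif4g2 12.06, 12.09 and 12.12. Nom1, a nucleolar MIF4G protein gene, had 8.84 in each sample. Pdcd4, an MA3 domain inhibitor of eIF4A, had 10.67, 10.63 and 9.89, a range of 0.78 with sample 3 low. Eif4g3 had 10.53, 10.35 and 10.67. Neither had the sample order of Cwc22.

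**Figure D4:**
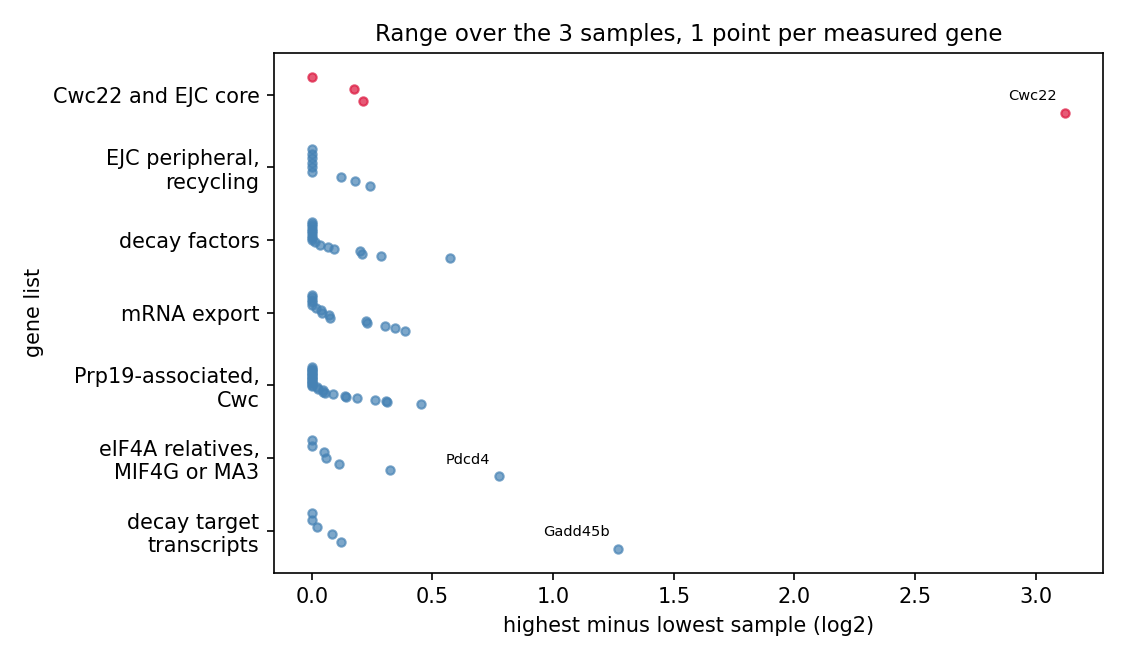
Highest minus lowest sample (log2, horizontal axis) for each measured gene of the 7 gene lists (vertical axis), 1 point per gene, with Cwc22 and the complex core in red; height within a list only separates the points. Cwc22 lies at 3.12, and the next widest are Gadd45b at 1.27 and Pdcd4 at 0.78.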

How the data were processed

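The deposited values are log2 probe set signals made with Affymetrix Expression Console from biotin-labelled cDNA after 1 round of WT-Ovation Pico amplification, per the submitters' processing notes and the labels' protocols. Version, background correction and probe summary: not given in the sources used here. Base 2 follows from the highest value, 14.39, which in another base would pass the range of the scanner. Array medians were 7.53, 7.56 and 7.54, and centring beyond this is unknown. The 35557 probe sets were used as deposited. Of these, 21789 had exactly 1 gene symbol, 1621 had several, and 12147 were not listed. Symbols were updated by Entrez number with the RefSeq table of GRCm38.p6 (21698 matched), and the probe set with the highest mean stood for a gene. Olfactory and similar genes set the threshold and were left out of the named genes.

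The members and gene lists were chosen with earlier results of these data known, and no test was run. The genes named were the members, in each list the 2 highest and 1 lowest by mean and the 2 widest by range, 3 neighbours on each side, the 5 nearest patterns and the next gene by SD. Promoters came from RefSeq, which matched Cwc22, Eif4a3, Magoh and Magohb; Rbm8a and Casc3 were not matched. Python 3.11.15 and pandas 2.3.3 were used, and calculations were tested on simulated data.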

Additional observations from a re-analysis of the deposited data

How the results depend on the processing

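All 4 measured members stayed above the threshold at the 90th and 99th percentiles, with the threshold raised by 1, with olfactory receptors alone, with the mean of a gene's probe sets and without any one sample. Without 1 sample at a time the range of Cwc22 was 0.91 to 3.12, the lowest without sample 1, and its mean was 10.79 to 12.35. Its range was 3.09 and 3.12 with arrays centred on all probe sets or on genes above the threshold, 2.96 as the mean of its probe sets, and 1.86 for the separate probe set alone, which was added once the values were known. Decay factors above the threshold fell from 17 to 11 with the threshold raised by 1, and decay target transcripts from 5 to 3 there and at the 99th percentile, where 32.7% and 35.3% of named genes passed. No paired analysis was possible because there was 1 group. The 3 arrays limit the precision of every value, and identical values make many SDs too small.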
